A study of Mus musculus with 35 samples.

Results

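The hypoxia response genes described here are 8 transcripts of the cellular reaction to low oxygen, taken by symbol from a table of 53379 gene rows: Hif1a, Egln3, Vegfa, Adm, Bnip3, P4ha1, Ddit4 and Ndrg1. Each symbol matched 1 row. They were measured in myeloid-derived suppressor cells (MDSC) and in bulk tumor of mice with pancreatic cancer. Female C57BL/6 mice received an orthotopic implant of T110299, a single line derived from 1 mouse with Ptf1a-Cre, active in the pancreas, and p53 fl/R172H, so that every tumor in the series carries the same genotype. Of 8 tumor-bearing mice, 4 received 50 µg of poly(I:C) complexed with polyethylenimine (poly(I:C)c), a synthetic double-stranded RNA, on days 18 and 20, and 4 are labelled untreated, for whom the sample protocols give glucose as the control. Polymorphonuclear MDSC (PMN-MDSC, CD11b+ Ly6C low Ly6G+) and monocytic MDSC (M-MDSC, CD11b+ Ly6C high Ly6G-) were enriched on CD11b beads and sorted from spleen and from tumor, whereas bulk tumor of untreated mice was lysed without sorting. No tumor-free mouse was sequenced among the libraries used here, so the spleen cells came from tumor-bearing mice too. The groups held 4 libraries each, except 3 for treated spleen PMN-MDSC and 3 for treated tumor M-MDSC, after 1 library of that last group with 10 counts was left out. Library numbers below only name the libraries of a group.

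When oxygen falls, the prolyl hydroxylases that mark HIF-1α for destruction by the von Hippel-Lindau ligase slow down, and HIF-1α accumulates, pairs with ARNT and switches on target genes. Because this control acts mainly on the protein, the level of Hif1a mRNA is a separate quantity from HIF activity, and in myeloid cells Hif1a mRNA is also known to respond to inflammatory signals through NF-κB. Among the targets, Egln3 encodes a prolyl hydroxylase that feeds back on HIF-1α, Vegfa and Adm encode the secreted factors VEGF-A and adrenomedullin, Bnip3 encodes a mitophagy receptor, P4ha1 encodes the catalytic subunit of a collagen prolyl 4-hydroxylase, Ddit4 encodes the mTORC1 inhibitor REDD1, and Ndrg1 encodes a stress-induced cytoplasmic protein. Several of them also answer to other stresses, Ddit4 to glucocorticoids and DNA damage for example.

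HIF binds the core ACGTG or GCGTG of a hypoxia response element, and these letters were searched on both strands of the RefSeq promoter windows (GRCm38.p6, 250 bases before to 50 bases after a start site). Windows were found for 7 of the 8 genes, 8 windows in all with 2 start sites for Vegfa. ACGTG stood in 6 of the 8 windows, against 19.6% of all 32851 windows of that length, and either core stood in 7 of the 8, against 43.8% of all windows. The window of the upstream Vegfa start held neither core. Vegfa is shown by its downstream start only because that window held a match, and the counts above include it. The starts of that window and of the Hif1a window lie within the gene, and the bases just after them were not found in a GENCODE M21 transcript, unlike those of the other 6 windows. The matches of ACGTG are printed with 12 bases on each side, because they show where the letters sit in genes whose levels are compared below. Each is read 5′ to 3′ along the strand of its gene, and capitals mark the match, as ACGTG or as its reverse complement CACGT.
Hif1a, chr12:73907721-73907749, plus strand, 134 bases before the start: acacagacaagcACGTGagcggggcagct
Hif1a, chr12:73907785-73907813, plus strand, 70 bases before the start: tggctgagagcaACGTGggctggggtggg
Vegfa, downstream start site, chr17:46025358-46025386, minus strand, 211 bases before the start: ggagtgcgtgccCACGTcagagagcaaca
Egln3, chr12:54204087-54204115, minus strand, 229 bases before the start: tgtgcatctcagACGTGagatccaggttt
Bnip3, chr7:138909597-138909625, minus strand, 107 bases before the start: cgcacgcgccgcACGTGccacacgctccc
P4ha1, chr10:59323268-59323296, plus strand, 16 bases before the start: tgtgacagagcgCACGTagcgagggctgc
Ddit4, chr10:59951941-59951969, minus strand, 187 bases before the start: agaacgttgcgaACGTGcgcccggtgcct
The first Hif1a match and the Bnip3 match lie within CACGTG, an E-box that reads the same on both strands and is bound by other factors as well. The Adm window held GCGTG as its reverse complement, in this stretch 90 bases before the start (chr7:110627555-110627583, plus strand): tttagaagcaagCACGCtggagagggagg. A match in these letters is a description of the window and not a bound site.

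The MDSC libraries held 793070 to 4357105 counts and the bulk tumor libraries 3771590 to 8886115, and levels are given as CPM, counts scaled to the total of a library. Summed interferon-stimulated genes were higher in every treated library than in every untreated library of the same cell type and compartment, as the labels say. Markers were less uniform. The 14 immediate early genes of a tissue handling list (Fos, Jun, Egr1 and others) summed to 9788 to 20140.3 CPM in tumor MDSC, at most 4701 CPM in spleen MDSC and 267 to 304 CPM in bulk tumor. In tumor PMN-MDSC the 11 neutrophil genes summed to 1513 to 11417 CPM, against 24580.3 to 77539 CPM in spleen PMN-MDSC, with the sorting antigen Ly6g at a mean of 2.94 CPM in untreated tumor PMN-MDSC and 55.2 CPM in untreated spleen PMN-MDSC. The 8 macrophage genes summed to 2771 to 5767 CPM in tumor PMN-MDSC and 38.9 to 1122 CPM in spleen PMN-MDSC. Epithelial tumor cell genes in untreated tumor PMN-MDSC summed to 14.4%, 8.87%, 2.35% and 3.44% of their mean in bulk tumor. The labels of tumor PMN-MDSC are kept, although the neutrophil markers were low there.

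**Figure D1:**
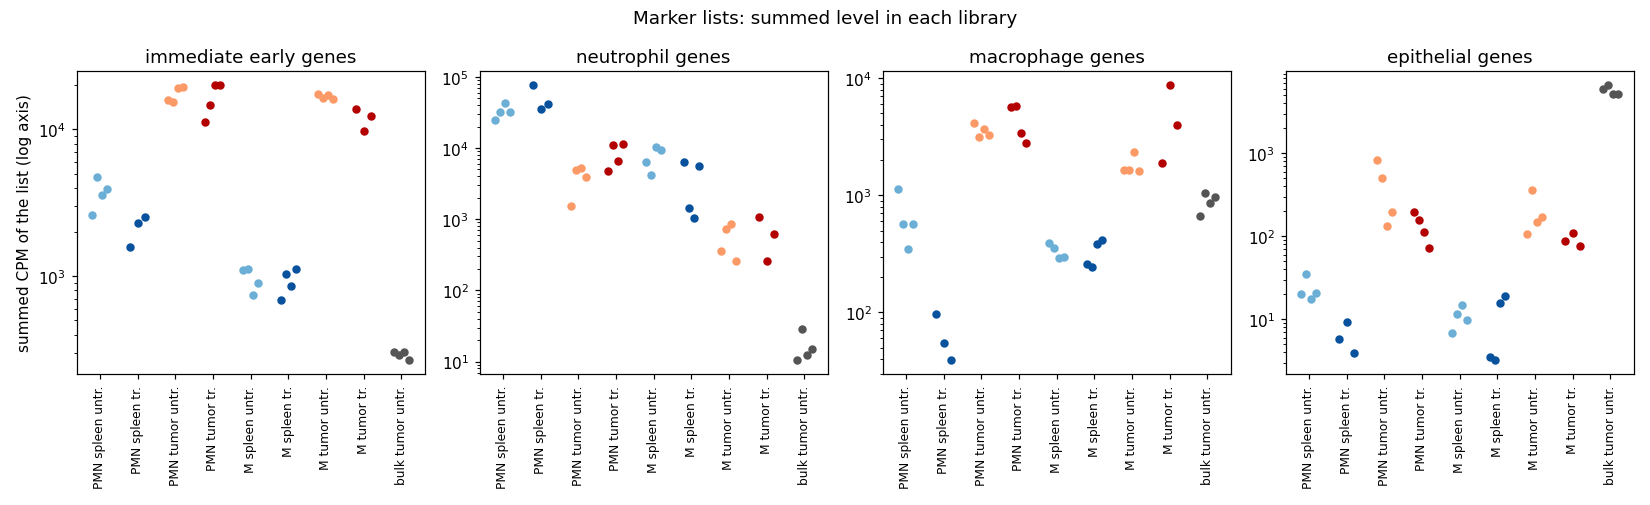
Summed CPM (log axis) of 4 marker lists in each library (points) of the 9 groups (PMN, PMN-MDSC; M, M-MDSC; untr., untreated; tr., treated with poly(I:C)c). The immediate early sum is 9788 CPM or more in every tumor MDSC library and at most 304 CPM in bulk tumor, and the epithelial sum of tumor MDSC lies between spleen MDSC and bulk tumor.

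**Figure D2:**
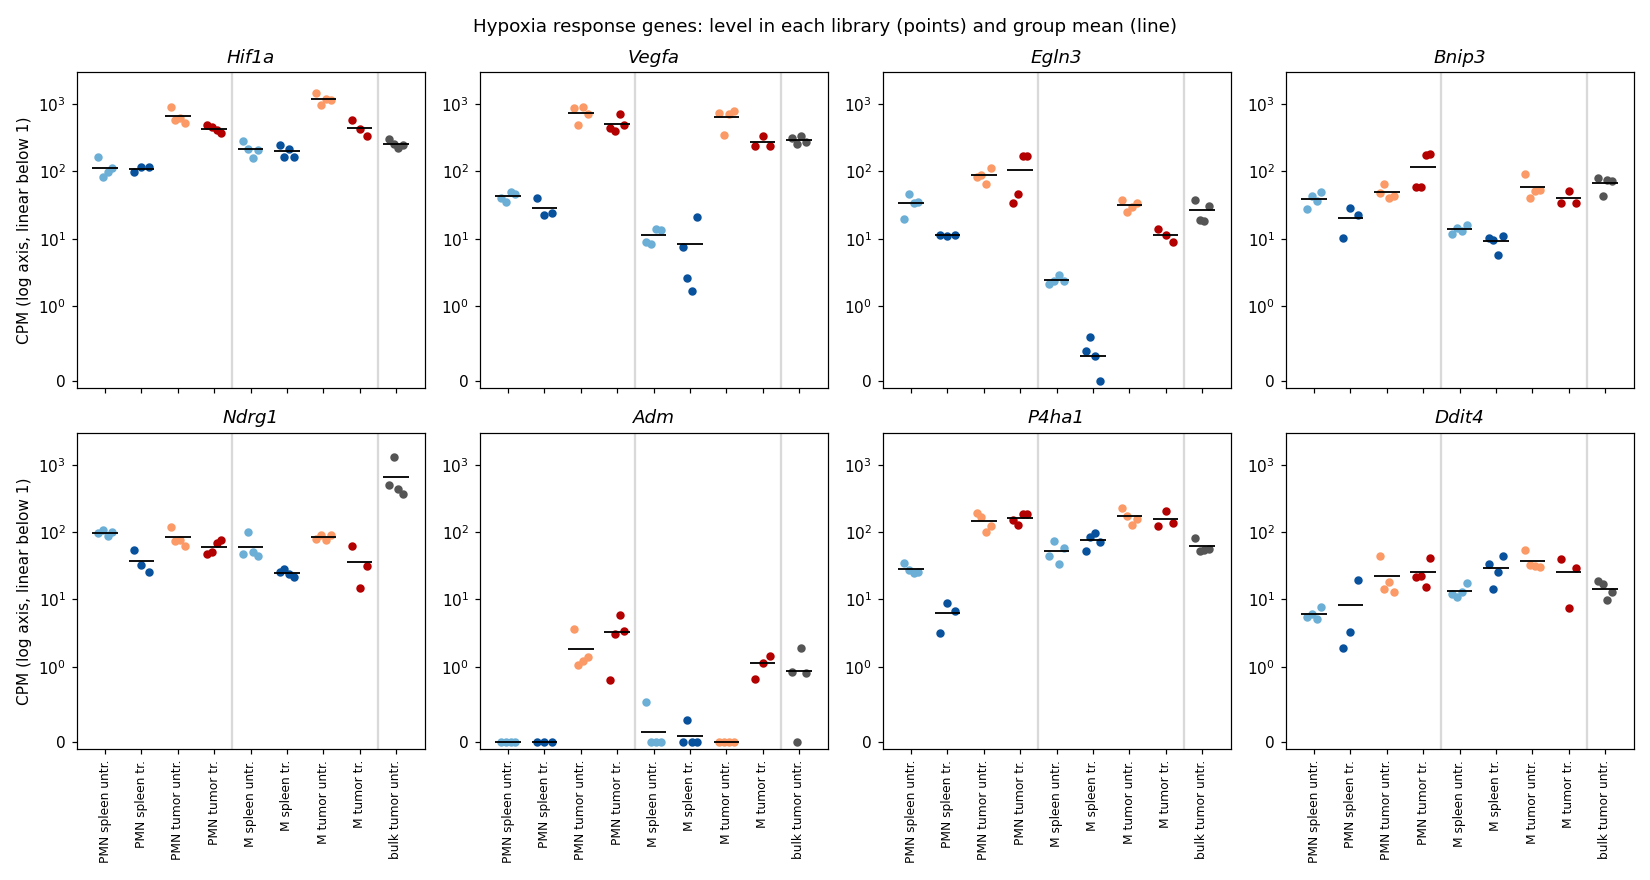
Level of each gene in CPM (axis logarithmic above 1 and linear below) in every library (points) with the group mean (line), with the same 9 groups. Hif1a and Vegfa are higher in every tumor MDSC library than in every spleen library of the same cell type, Ndrg1 is highest in bulk tumor at 371 to 1288 CPM, and Adm stays at 5.93 CPM or less.

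Levels of different genes are compared per exon length, as FPKM, in which CPM is divided by the exon length in kilobases. In untreated spleen PMN-MDSC the mean FPKM was 19.2 for Hif1a, 17.3 for Bnip3, 14.8 for Ndrg1, 12.7 for Egln3, 10.0 for Vegfa, 6.81 for P4ha1 and 3.47 for Ddit4. In untreated tumor PMN-MDSC the order by FPKM was Vegfa 174, Hif1a 111, P4ha1 35.3, Egln3 32.7, Bnip3 21.5, Ddit4 12.7, Ndrg1 12.6 and Adm 1.13. In untreated tumor M-MDSC Hif1a came first at 202 FPKM and Vegfa next at 152 FPKM. In bulk tumor Ndrg1 had the highest mean at 98.6 ± 65.0 FPKM (SD), followed by Vegfa at 69.1 ± 8.81 FPKM. That order rests on an outlying library with Ndrg1 at 1288 CPM, against a group median of 471 CPM.

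The first comparison asks how MDSC of the tumor differ from MDSC of the spleen in untreated mice. In M-MDSC all 7 genes with enough counts were higher in tumor, and Vegfa led with a log2 fold change of 6.08. In PMN-MDSC 5 of the 7 were higher, namely Hif1a, Vegfa, Egln3, P4ha1 and Ddit4, while Bnip3 and Ndrg1 did not pass the test. Genes called at an adjusted p under 0.05 made up 59.1% of the 7971 genes tested in PMN-MDSC, 29.4% being higher in tumor, so that 5 of 7 stands against a high background. In M-MDSC 28.4% of 8298 genes were called and 15.7% were called higher in tumor, against 7 of 7. The median log2 fold change was 1.72 over the 7 genes and 0.01 over all genes tested in PMN-MDSC, and 2.34 against 0.02 in M-MDSC. At the study's stricter threshold, an adjusted p under 0.001 with at least a 2-fold change, 3 genes were called in PMN-MDSC (21.7% of all genes) and 6 in M-MDSC (8.6%). The eighth gene, Adm, had fewer than 25 counts per library on average and was not tested.

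Hif1a, the oxygen-regulated subunit of HIF-1, was at 162, 83.2, 96.9 and 110.5 CPM in untreated spleen PMN-MDSC and at 909, 576, 622 and 522 CPM in untreated tumor PMN-MDSC. In M-MDSC it was at 279.5, 218, 158 and 210.0 CPM in spleen and at 1472, 963, 1188 and 1137 CPM in tumor. Every tumor library lay above every spleen library in both cell types. The log2 fold change was 2.42 ± 0.237 (SE, adjusted p = 2.3e-05) in PMN-MDSC and 2.72 ± 0.200 (adjusted p = 1.5e-06) in M-MDSC. Its 2 increases were not shown to differ, with a difference of -0.31 (95% interval -0.91 to 0.29, adjusted p = 0.441).

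Egln3, the feedback hydroxylase, was at 19.4, 46.8, 34.2 and 35.3 CPM in spleen PMN-MDSC and at 83.7, 87.8, 65.9 and 111 CPM in tumor PMN-MDSC. Spleen M-MDSC held it at 2.11, 2.32, 2.90 and 2.38 CPM and tumor M-MDSC at 37.9, 24.9, 29.7 and 34.0 CPM. The ranges did not overlap in either cell type, and the tumor M-MDSC reached the level that spleen PMN-MDSC already had. The log2 fold change was 1.21 ± 0.303 (adjusted p = 0.00568) in PMN-MDSC and 3.92 ± 0.265 (adjusted p = 7.0e-07) in M-MDSC.

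Vegfa, the angiogenic ligand, was at 40.9, 34.9, 50.1 and 45.6 CPM in spleen PMN-MDSC and at 861, 483, 915 and 722 CPM in tumor PMN-MDSC. In M-MDSC it was at 8.97, 8.36, 14.1 and 13.6 CPM in spleen and at 745, 341, 713 and 798 CPM in tumor. The groups were far apart in both cell types, and the lowest tumor library of each was the one numbered 2. The log2 fold change was 3.99 ± 0.231 (adjusted p = 1.8e-06) in PMN-MDSC and 6.08 ± 0.320 (adjusted p = 1.4e-07) in M-MDSC. Adm, the other secreted factor, had no count in any of the 4 spleen PMN-MDSC libraries and 14 counts over the 4 tumor PMN-MDSC libraries, at 3.64, 1.08, 1.2 and 1.42 CPM. Against a floor of 3 counts over the spleen group, its pooled level was at least 6.82-fold higher in tumor PMN-MDSC. Tumor M-MDSC held no Adm count in any library, which allows up to 0.390 CPM over the group, and spleen M-MDSC held it in 1 library at 0.527 CPM.

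Bnip3, the mitophagy receptor, was at 27.3, 42.8, 36.9 and 49.5 CPM in spleen PMN-MDSC and at 47.9, 65.0, 39.6 and 42.7 CPM in tumor PMN-MDSC. These ranges overlapped, and the log2 difference of 0.18 had a 95% interval of -0.32 to 0.68 (adjusted p = 0.555). In M-MDSC it was at 11.6, 14.4, 13.2 and 16.2 CPM in spleen and at 91.3, 39.8, 51.9 and 53.0 CPM in tumor, without overlap (log2 fold change 2.34 ± 0.264, adjusted p = 4.6e-05). In tumor M-MDSC 3 of the 4 libraries lay above every spleen PMN-MDSC library.

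P4ha1, the collagen hydroxylase subunit, was at 34.2, 27.4, 24.7 and 25.7 CPM in spleen PMN-MDSC and at 193, 165, 101 and 122 CPM in tumor PMN-MDSC. In M-MDSC it was at 44.3, 74.8, 33.1 and 58.8 CPM in spleen and at 226, 176, 126 and 159 CPM in tumor. Tumor libraries were higher without overlap in both cell types, by log2 2.24 ± 0.238 (adjusted p = 3.7e-05) in PMN-MDSC and 1.96 ± 0.260 (adjusted p = 1.6e-04) in M-MDSC. Ddit4, the mTORC1 inhibitor gene, was lower in level, at 5.57, 5.98, 5.08 and 7.71 CPM in spleen PMN-MDSC and 44.3, 14.1, 18.0 and 12.8 CPM in tumor PMN-MDSC. It was at 12.1, 10.7, 12.8 and 17.4 CPM in spleen M-MDSC and at 55.0, 33.0, 31.9 and 30.3 CPM in tumor M-MDSC. The tumor libraries lay above the spleen libraries in each cell type, and library 1 of each tumor group stood above the other 3. The log2 fold change was 1.72 ± 0.417 (adjusted p = 0.00484) in PMN-MDSC and 1.74 ± 0.251 (adjusted p = 2.7e-04) in M-MDSC.

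Ndrg1 followed a different course. It was at 97.1, 108, 86.7 and 99.2 CPM in spleen PMN-MDSC and at 121, 74.8, 75.5 and 61.7 CPM in tumor PMN-MDSC. In M-MDSC it was at 46.9, 98.9, 50.5 and 44.3 CPM in spleen and at 79.7, 90.3, 77.1 and 90.8 CPM in tumor. The ranges overlapped in both cell types. The log2 difference was -0.38 (95% interval -0.82 to 0.06, adjusted p = 0.167) in PMN-MDSC, and without tumor library 1 it was -0.55 with an adjusted p of 0.0358. In M-MDSC it was 0.74 ± 0.251 (adjusted p = 0.0454), and leaving out any library except spleen library 2 ended this call, with adjusted p-values of 0.069 to 0.139, as did a joint fit of the 4 M-MDSC groups (adjusted p = 0.165).

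The tumor and spleen groups also differed in handling and in marker genes. Tumors were dissociated with a tissue dissociation kit and spleens were pressed through a strainer, so that handling and compartment cannot be told apart, and of the 14 immediate early genes 12 were higher in tumor PMN-MDSC and all 14 were higher in tumor M-MDSC. The 11 neutrophil genes were all lower and 6 of 8 macrophage genes and 6 of 8 monocyte genes higher in tumor PMN-MDSC. Mitochondrial transcripts took 7.17 to 15.3% of counts in untreated tumor PMN-MDSC and 2.63 to 5.27% in spleen PMN-MDSC. In M-MDSC 6 of the 8 neutrophil genes tested were lower and 6 of the 7 macrophage genes tested higher. The part of these in the hypoxia response genes was not tested. Epithelial genes were detected in tumor MDSC as well. A share of bulk tumor equal to the epithelial share of untreated tumor PMN-MDSC, 7.26%, would hold 21.5 CPM of Vegfa against 745 CPM measured, 18.5 CPM of Hif1a against 657 CPM and 1.91 CPM of Egln3 against 87.1 CPM. For Ndrg1 the same share would hold 47.2 CPM against 83.2 CPM measured. Without untreated tumor PMN-MDSC library 1, which had the highest epithelial share, the log2 fold change was 2.28 for Hif1a, 3.96 for Vegfa, 1.29 for Egln3 and 2.13 for P4ha1, all called, and Ddit4 had too few counts for the test. These shares take the levels of directly lysed bulk tumor, and the part of epithelial cells was not tested.

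**Figure D3:**
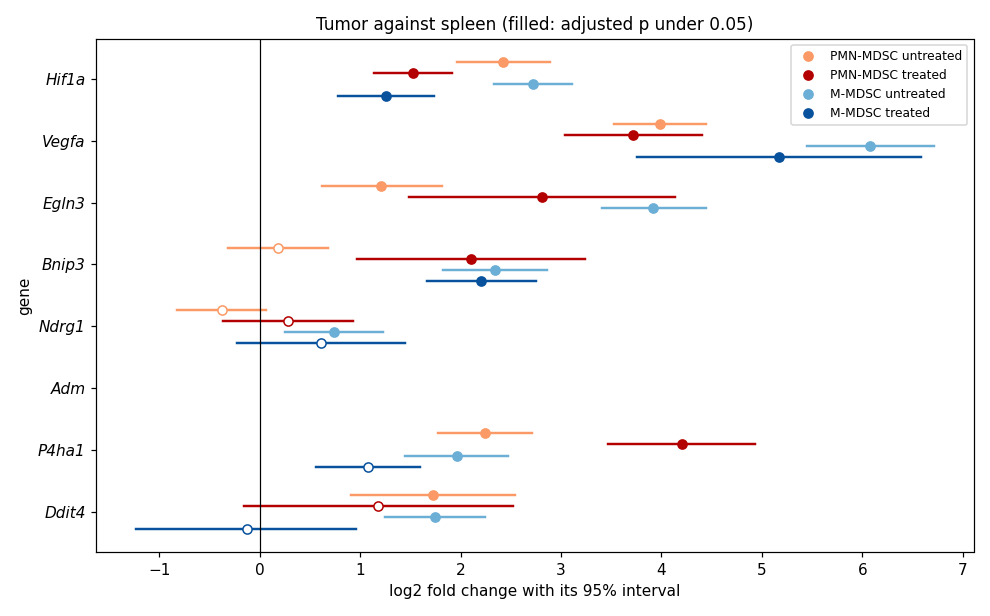
Log2 fold change of tumor against spleen with its 95% interval for each gene tested, in PMN-MDSC and M-MDSC of untreated and treated mice (filled points, adjusted p under 0.05; open points, not called). Vegfa has the largest values in M-MDSC at 6.08 untreated and 5.17 treated, Bnip3 of untreated PMN-MDSC is at 0.18, and Adm was not tested.

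The second comparison sets the 2 cell types against each other in untreated mice. In spleen PMN-MDSC held more Egln3 (log2 difference 4.15 ± 0.350, adjusted p = 1.2e-05), Vegfa (2.29 ± 0.208, adjusted p = 1.8e-05), Bnip3 (1.86 ± 0.227, adjusted p = 1.0e-04) and Ndrg1 (1.07 ± 0.267, adjusted p = 0.00583) than M-MDSC. They held less Ddit4 (-0.76 ± 0.241, adjusted p = 0.0192) and less Hif1a (-0.57 ± 0.221, adjusted p = 0.0453), so 6 of 7 genes were called where 64.4% of all genes were. The Hif1a ranges overlapped, and this call ended when any library but PMN-MDSC library 1 or M-MDSC library 3 was left out (adjusted p 0.0506 to 0.126). Without PMN-MDSC library 3 the Ddit4 call ended too, at an adjusted p of 0.0596. In tumor only 2 of 7 genes were called, against 13% of all genes. Egln3 remained higher in PMN-MDSC, by 1.51 ± 0.212 (adjusted p = 6.0e-04), and Hif1a lower, by -0.82 ± 0.197 (adjusted p = 0.0158). The Hif1a ranges did not overlap in tumor, but without PMN-MDSC library 2, 3 or 4 the adjusted p was 0.0601 to 0.0619. Vegfa differed by 0.24 in tumor with an interval of -0.28 to 0.75, and Ndrg1 by 0.02 with an interval of -0.37 to 0.42. Ddit4 was -0.75 (adjusted p = 0.224) and, without PMN-MDSC library 1, -1.28 (adjusted p = 0.0113).

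The difference between these differences was tested as an interaction. The change from spleen to tumor was smaller in PMN-MDSC than in M-MDSC for Egln3 by log2 2.72 (interaction -2.72 ± 0.442, adjusted p = 2.4e-04), for Bnip3 (-2.17 ± 0.387, adjusted p = 5.0e-04), for Vegfa (-2.12 ± 0.364, adjusted p = 3.7e-04) and for Ndrg1 (-1.13 ± 0.360, adjusted p = 0.0212). For Ndrg1 the adjusted p was 0.0534 or 0.0568 without tumor PMN-MDSC library 3 or 4. These 4 of 7 genes stand against 37.5% of all genes called, 20.4% in the same direction. For Hif1a, P4ha1 and Ddit4 the interaction was -0.31, 0.27 and -0.04, with intervals that included 0.

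The third comparison asks what poly(I:C)c changed. Few hypoxia response genes passed the test, and most of those that did were lower after treatment. In spleen PMN-MDSC 3 of 6 genes tested fell, against 11.6% of all genes called and 5.52% called lower. In tumor PMN-MDSC none of 7 was called by edgeR with the count minimum (3.36% of all genes were). Without the minimum edgeR called Bnip3 (7.1e-04), and DESeq2 called Hif1a and Bnip3. Hif1a, Vegfa and Bnip3 had an unadjusted p under 0.05, a threshold for which no share of all genes was computed here or below. In spleen M-MDSC 1 gene rose and 1 fell among 6 (19.4% of all genes called). In tumor M-MDSC 2 of 7 fell, against 2.88% of all genes called and 1.06% called lower.

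In treated tumor M-MDSC Hif1a was at 572, 429 and 339 CPM, below all 4 untreated libraries at 963 to 1472 CPM. Hif1a fell by 1.51 on the log2 scale (± 0.262, adjusted p = 0.0224). Egln3 was at 13.9, 11.2 and 8.84 CPM in the treated libraries, also below all untreated ones at 24.9 to 37.9 CPM, and fell by 1.57 (± 0.282, adjusted p = 0.0255). In tumor M-MDSC 4 of the 7 genes had no overlap between the groups, as had 19.8% of all genes. Both calls ended without treated library 3 or without untreated library 1, 3 or 4, with adjusted p-values of 0.0569 to 0.116. Vegfa, at 241, 330.5 and 236 CPM after treatment, lay below the untreated range of 341 to 798 CPM without passing the test (log2 difference -1.37 ± 0.318, adjusted p = 0.0542). DESeq2 gave Vegfa an adjusted p of 0.00105, and edgeR gave 0.0289 or 0.0396 without untreated or treated library 2. Ndrg1 was at 62.4, 14.7 and 31 CPM and also below its untreated range (-1.33 ± 0.419, adjusted p = 0.120). Without treated library 1 its difference was -1.97 with an adjusted p of 0.0151, and DESeq2 (0.0311), the joint fit of 4 groups (0.0438) and edgeR without a count minimum (1.1e-04) called it too. Treated library 2 had the highest macrophage sum, 8816 CPM against 1878 and 3986 CPM in the other two and 1627 to 2344 CPM in untreated tumor M-MDSC, and the part of this was not tested. The endothelial sum was 17.2 to 80.7 CPM in the treated and 0 to 8.32 CPM in the untreated libraries. Within it Kdr averaged 37.2 and 1.78 CPM, and no other gene of that list averaged above 2.61 CPM in the treated libraries. The monocyte sum was 3071 to 3851 CPM in the treated and 4265 to 4742 CPM in the untreated libraries. The immediate early sum was 9788 to 13696 CPM in the treated and 15982 to 17279 CPM in the untreated libraries, and the part of these sums was not tested either. Adm had no count in untreated tumor M-MDSC and 0.843, 1.15 and 1.47 CPM in the treated libraries, at least 2.99-fold higher by pooled counts (11 counts). P4ha1, Ddit4 and Bnip3 differed by -0.25, -0.69 and -0.67 and were not called.

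In treated tumor PMN-MDSC Hif1a was at 487, 449, 407 and 375 CPM, below the untreated libraries at 522 to 909 CPM without overlap, yet not called by edgeR (log2 difference -0.64, 95% interval -1.03 to -0.26, adjusted p = 0.112). Vegfa was at 437, 396, 704 and 485 CPM, of which libraries 1 and 2 lay below the untreated range of 483 to 915 CPM and the others inside it (-0.57 ± 0.254, adjusted p = 0.264). Bnip3 and Egln3 were uneven there, with log2 differences of 1.28 ± 0.438 (adjusted p = 0.157) and 0.29 (95% interval -0.78 to 1.35), with the single libraries described further on.

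In spleen the treated Hif1a libraries stood among the untreated ones, at 98.0, 117 and 115 CPM in PMN-MDSC and at 247, 164, 218 and 165 CPM in M-MDSC. The log2 difference was 0.27 (95% interval -0.18 to 0.71) and -0.07 (-0.46 to 0.31). The change of Hif1a with treatment was not shown to differ between tumor and spleen M-MDSC, where the interaction was -1.43 ± 0.326 with an adjusted p of 0.0545. DESeq2 gave -1.47 and an adjusted p of 0.00134, and edgeR with RLE scaling gave an adjusted p of 0.0481. It was also called without treated spleen library 4 (0.0496) or treated tumor library 1 (0.0188). With the count minimum and TMM scaling edgeR called no gene of the list for this interaction, where 0.79% of all genes were called. Without the count minimum it called Hif1a (6.7e-04) and Ddit4 (2.5e-04), and Hif1a and Ddit4 had an unadjusted p under 0.05.

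In treated spleen PMN-MDSC P4ha1 was at 3.20, 8.91 and 6.84 CPM, below all untreated libraries at 24.7 to 34.2 CPM (log2 fold change -1.80 ± 0.358, adjusted p = 0.0178). Ndrg1 was at 55.1, 32.7 and 25.2 CPM against 86.7 to 108 CPM (-1.10 ± 0.283, adjusted p = 0.0396). Egln3 was at 11.5, 11.1 and 11.5 CPM against 19.4 to 46.8 CPM (-1.29 ± 0.353, adjusted p = 0.0499). None of these 3 pairs of groups overlapped in CPM, as for 30.4% of all genes, but the calls of Egln3 and Ndrg1 each ended in 6 of the 7 fits that left out 1 library (adjusted p 0.0626 to 0.137), all but the one without untreated library 1 for Egln3 and the one without treated library 1 for Ndrg1. A joint fit of the 4 PMN-MDSC groups also ended the Egln3 call (adjusted p = 0.113). The P4ha1 call ended without treated library 3 (adjusted p = 0.0687). Markers of other cells moved with these groups: the macrophage sum was 345 to 1122 CPM in untreated and 38.9 to 97.3 CPM in treated spleen PMN-MDSC, the erythroid sum 59.3 to 175 and 0.360 to 7.04 CPM, and the immediate early sum 2588 to 4701 and 1577 to 2517 CPM. Their part was not tested. Library-size scaling moved this comparison by 0.29 on the log2 scale relative to CPM. In tumor PMN-MDSC P4ha1 was not lower after treatment, at 151, 129, 187 and 184 CPM against 101 to 193 CPM (0.15, interval -0.32 to 0.62). The effect of treatment on P4ha1 differed between tumor and spleen PMN-MDSC by 1.95 ± 0.414 (adjusted p = 0.0198), the 1 call of 7 genes where 3.5% of all genes were called. Without treated spleen library 3 its adjusted p was 0.0722. Hif1a (-0.90, adjusted p = 0.110), Bnip3 (1.92, adjusted p = 0.118) and Egln3 (1.6, adjusted p = 0.284) had an unadjusted p under 0.05 for this interaction, and DESeq2 called Hif1a (0.0257) and edgeR without a count minimum called Bnip3 (1.5e-04).

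In spleen M-MDSC Ndrg1 fell by 1.22 on the log2 scale (± 0.276, adjusted p = 0.0132), from 44.3 to 98.9 CPM in untreated libraries to 25.6, 27.9, 24 and 21.2 CPM in treated ones. No leave-out ended this call. Ddit4 rose by 1.17 ± 0.314 (adjusted p = 0.0274), to 33.5, 14.3, 25.7 and 43.8 CPM from 12.1, 10.7, 12.8 and 17.4 CPM, with treated library 2 inside the untreated range. Its call ended without treated library 1 or untreated library 1, 2 or 3 (adjusted p 0.0631 to 0.0749) and in a joint fit of the 4 M-MDSC groups (0.0834). Marker sums also moved with these M-MDSC groups. The erythroid sum was 28.3 to 60.5 CPM in untreated and 0.675 to 3.16 CPM in treated libraries. The endothelial sum was 5.27 to 11.7 CPM in untreated and 94.2 to 275 CPM in treated libraries. Within the endothelial list Kdr averaged 3.75 CPM in untreated and 153 CPM in treated libraries. Tek and Emcn had no count in either group, and Vwf averaged lower after treatment. Cdh5 and Egfl7 averaged 2.31 and 0.441 CPM in treated libraries. The part of these sums was not tested. Egln3 in spleen M-MDSC had too few counts for the test, at 2.11 to 2.90 CPM in untreated and 0 to 0.582 CPM in treated libraries. Without the count minimum edgeR gave it a log2 difference of -2.56 (adjusted p = 0.0455). Ddit4 in treated spleen PMN-MDSC was uneven at 1.92, 3.34 and 19.4 CPM and also had too few counts. Vegfa in treated spleen M-MDSC was at 7.49, 2.62, 1.69 and 21.2 CPM, a spread wider than the untreated range of 8.36 to 14.1 CPM on both sides (-0.46, interval -1.74 to 0.82).

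**Figure D4:**
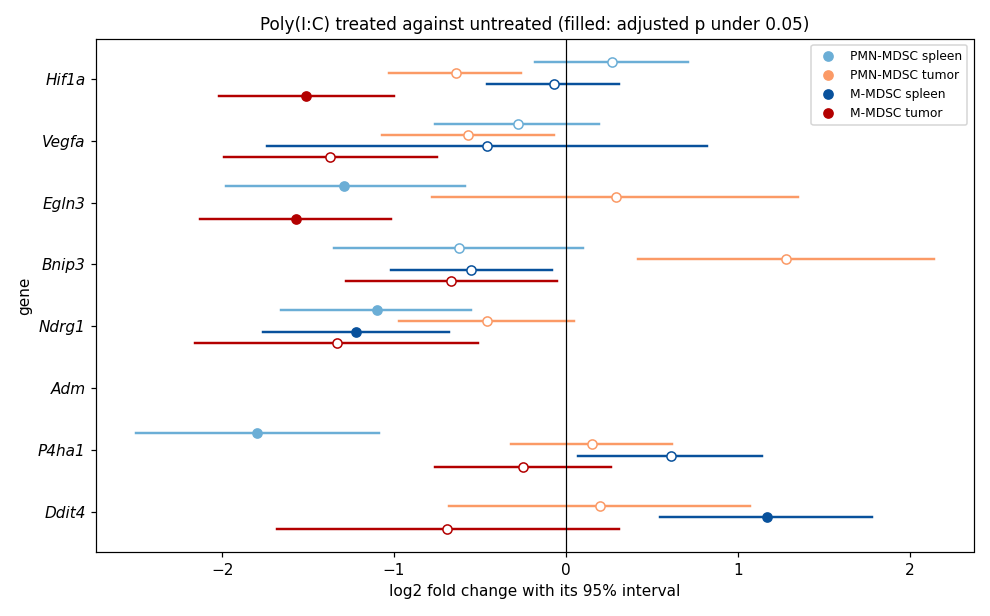
Log2 fold change of treated against untreated with its 95% interval for each gene tested in the 4 combinations of cell type and compartment (filled points, adjusted p under 0.05; open points, not called). The filled points are Egln3, Ndrg1 and P4ha1 in spleen PMN-MDSC, Ndrg1 and Ddit4 in spleen M-MDSC, and Hif1a and Egln3 in tumor M-MDSC, and of these only Ddit4 at 1.17 lies above 0, while the open point of Bnip3 in tumor PMN-MDSC is at 1.28.

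The same compartments were compared in treated mice. In treated PMN-MDSC 5 of 7 genes were higher in tumor, against 53.6% of all genes called and 28.2% called higher: P4ha1 (log2 fold change 4.20 ± 0.372, adjusted p = 1.4e-04), Vegfa (3.72 ± 0.346, adjusted p = 1.5e-04), Egln3 (2.81 ± 0.673, adjusted p = 0.00787), Bnip3 (2.10 ± 0.578, adjusted p = 0.0146) and Hif1a (1.53 ± 0.196, adjusted p = 4.4e-04). Ddit4 was 1.18 (adjusted p = 0.173), and 2.69 (adjusted p = 0.0101) without spleen library 3 at 19.4 CPM. Adm had no count in treated spleen PMN-MDSC and 33 counts in treated tumor PMN-MDSC, at least 6.97-fold higher. In treated M-MDSC 3 of 6 genes were higher in tumor, against 5.97% of all genes called and 5.2% called higher: Vegfa (5.17 ± 0.719, adjusted p = 0.00664), Bnip3 (2.20 ± 0.278, adjusted p = 0.00437) and Hif1a (1.26 ± 0.244, adjusted p = 0.0238). The Hif1a call ended without any 1 of the 4 spleen libraries or tumor library 1 (adjusted p 0.05 to 0.0781). P4ha1 was 1.08 ± 0.264 (adjusted p = 0.0541), and DESeq2 gave it an adjusted p of 0.00506. Egln3 had too few counts for the test, with 0.394, 0.582, 0.338 and 0 CPM in spleen and 13.9, 11.2 and 8.84 CPM in tumor. The immediate early genes were higher in tumor in treated mice as well, 13 of 14 in PMN-MDSC and 12 of 14 in M-MDSC. So were all 8 macrophage genes in both cell types, while 10 of 11 neutrophil genes were lower in tumor PMN-MDSC, and the part of these markers was not tested.

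The 4 treated tumor PMN-MDSC libraries were not uniform. Libraries 1 and 2 held Egln3 at 33.7 and 46.8 CPM and libraries 3 and 4 at 170.1 and 169 CPM. Bnip3 was at 58.6 and 59.0 CPM in the first pair and at 174 and 179 CPM in the other. The untreated tumor PMN-MDSC lay below libraries 3 and 4 for both genes, at 65.9 to 111 CPM for Egln3 and 39.6 to 65.0 CPM for Bnip3. Among HIF targets outside the 8 genes, Ankrd37 was at 9.04, 10.6, 45.6 and 39.2 CPM, Hilpda at 32.9, 56.3, 99.0 and 206 CPM, Bnip3l at 63.3, 69.3, 139 and 145 CPM, and Slc2a1, the glucose transporter gene, at 178, 188, 322 and 387 CPM in libraries 1 to 4. Hif1a itself ran the other way, at 487, 449, 407 and 375 CPM, and Ddit4 was mixed at 21.4, 22.5, 15.5 and 41.3 CPM. Libraries 3 and 4 also had lower macrophage sums, 3379 and 2771 CPM against 5677 and 5767 CPM, and higher immediate early sums, 19985 and 20140.3 CPM against 11263 and 14658 CPM. Their part was not tested. These other targets were chosen after their values were seen, and the pairs of libraries are not groups of the study.

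**Figure D5:**
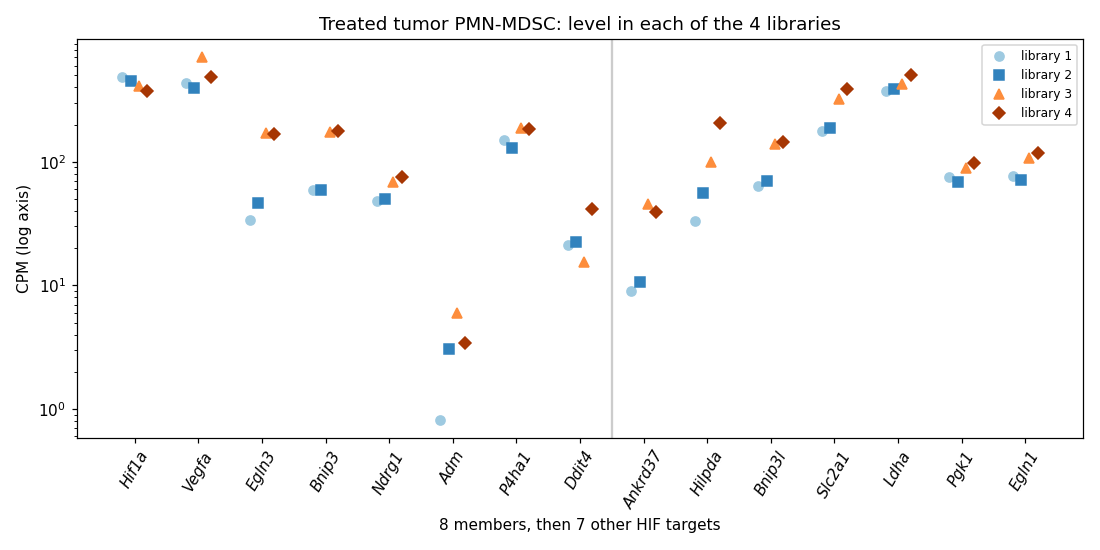
Level in CPM (log axis) of the 8 hypoxia response genes and 7 other HIF targets in each of the 4 treated tumor PMN-MDSC libraries (one marker per library). Libraries 3 and 4 lie at 170.1 and 169 CPM for Egln3 and at 174 and 179 CPM for Bnip3, above libraries 1 and 2, while Hif1a falls between 375 and 487 CPM in all 4.

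Bulk tumor shows where the sorted cells stand against the whole tissue, in which fewer cells of a type and less RNA per cell cannot be told apart. Hif1a, Vegfa and P4ha1 were lower in bulk tumor than in either tumor MDSC, and Ndrg1 was higher. Of 7 genes 5 were called against tumor PMN-MDSC, where 69.7% of all genes were called, and 5 against tumor M-MDSC, where 69.2% were. Ndrg1 was at 502, 1288, 441 and 371 CPM in bulk tumor, above every MDSC library, with log2 differences of 2.72 ± 0.418 (adjusted p = 2.0e-04) against tumor PMN-MDSC and 2.77 ± 0.379 (adjusted p = 5.0e-05) against tumor M-MDSC. Hif1a was at 300.2, 255, 223 and 243 CPM, lower by log2 -1.62 ± 0.199 (adjusted p = 2.0e-05) and -2.40 ± 0.207 (adjusted p = 1.2e-06). Vegfa was at 318, 256, 337 and 274 CPM, between the spleen MDSC and the tumor MDSC of untreated mice in mean level (-1.60 ± 0.210, adjusted p = 3.4e-05, and -1.31 ± 0.249, adjusted p = 6.1e-04). P4ha1 was at 81.8, 52.0, 54.6 and 56.9 CPM and lower against both cell types (-1.5 ± 0.229 and -1.66 ± 0.228). Egln3, at 37.0, 18.8, 18.1 and 31.1 CPM, was lower than in PMN-MDSC (-1.99 ± 0.266, adjusted p = 3.9e-05), and the difference from M-MDSC was -0.44 (interval -0.98 to 0.11). Without bulk library 1 that difference was -0.66 (adjusted p = 0.0487). Ddit4, at 18.5, 16.7, 9.68 and 13.1 CPM, was lower than in M-MDSC (-1.57 ± 0.289, adjusted p = 4.7e-04), and its value against PMN-MDSC was -0.86 (adjusted p = 0.0611). The latter was called without bulk library 1 (0.0498) or without tumor PMN-MDSC library 2 (0.047) or 4 (0.0319). Bnip3, at 80.4, 42.4, 75.1 and 72.5 CPM, differed by 0.20 and 0.01 with intervals that included 0. Bulk tumor was lysed directly and had low immediate early sums, so that tissue dissociation and sorting cannot be told apart from cell type in these contrasts.

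By order of group means, the ranges of neighbouring groups overlapped in 5 of 8 neighbouring pairs for Hif1a and Vegfa, 4 for Egln3, 6 for P4ha1, 7 for Bnip3 and Ndrg1, and all 8 for Adm and Ddit4. Hif1a was highest in untreated tumor M-MDSC (1190.3 ± 211 CPM, SD, n = 4), whose range cleared the next group, untreated tumor PMN-MDSC (657 ± 173 CPM). Vegfa was highest in untreated tumor PMN-MDSC (745 ± 193 CPM), overlapping untreated tumor M-MDSC (649 ± 209 CPM). Egln3 and Bnip3 were highest in treated tumor PMN-MDSC (105 ± 74.8 and 118 ± 68.0 CPM), where the libraries split.

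The wider HIF target list, 54 genes outside the 8, moved in both directions in PMN-MDSC. Of 37 tested there, 17 were higher and 9 lower in untreated tumor, where 59.1% of all genes were called and 29.4% were higher (median log2 0.46, against 0.01 over all genes). In M-MDSC 28 of 37 were higher and 1 lower, where 15.7% of all genes were higher (median 1.25, against 0.02). Among the highest in both was Hilpda, which encodes a lipid droplet protein. Hilpda was at 49.9 CPM in tumor and 0.520 CPM in spleen PMN-MDSC (log2 fold change 6.59 ± 0.495), and at 41.4 and 1.18 CPM in M-MDSC (5.51 ± 0.397). Rab20, a small GTPase, followed in M-MDSC (4.09 ± 0.225) and Bhlhe40, a transcriptional repressor, in PMN-MDSC (2.57 ± 0.200). The lowest genes in PMN-MDSC were Pfkfb4, a regulator of glycolysis (-2.29 ± 0.270), Narf (-1.63 ± 0.228) and the mitophagy receptor Bnip3l (-1.04 ± 0.201), and Pfkfb4 was the 1 lower gene in M-MDSC (-0.68 ± 0.135). For 19 of 37 targets the tumor step was smaller in PMN-MDSC than in M-MDSC by the interaction test and for none was it larger, where 20.4% of all genes were called in that direction, with a median of -0.84 against 0.00 over all genes. Slc2a1 (-1.90 ± 0.324) and Mxi1, a MYC antagonist (-1.94 ± 0.300), were among them.

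In treated mice 14 of 38 targets were higher and 6 lower in tumor PMN-MDSC, close to the 53.6% of all genes called and 28.2% called higher. In treated tumor M-MDSC 10 of 37 were higher and none lower, where 5.97% of all genes were called and 5.2% were higher. Hilpda was again among the highest (5.61 and 4.10), followed by the cytokine gene Mif in PMN-MDSC (3.92 ± 0.277) and the chemokine receptor gene Cxcr4 in M-MDSC (2.06 ± 0.341). Pfkfb4 (-2.25 ± 0.237), Gpi1 (-1.68 ± 0.314) and Mxi1 (-1.58 ± 0.247) were the lowest in PMN-MDSC. With treatment 3 targets rose and 1 fell of 33 in spleen PMN-MDSC, near the 11.6% of all genes called there. In spleen M-MDSC 10 rose and 5 fell of 34, against 19.4% of all genes called. In tumor M-MDSC Cxcr4 rose (1.24 ± 0.243) and Hk2 fell (-1.11 ± 0.216) of 38, against 2.88% of all genes called. At an unadjusted p under 0.05 there were 16, 13 of them lower, with no share of all genes to set beside them. The median log2 difference over the 38 was -0.43. For the interaction of treatment and compartment in M-MDSC 4 of 37 targets were called, all lower, where 0.79% of all genes were called. None of 38 was called in tumor PMN-MDSC by edgeR, and 9 had an unadjusted p under 0.05, again without a share of all genes. Of 47 targets 30 were higher in tumor PMN-MDSC than in bulk tumor and 9 lower, where 69.7% of all genes were called. Against tumor M-MDSC these counts were 29 and 10, where 69.2% were called.

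Of 17 listed genes that act on HIF, 12 were tested in untreated PMN-MDSC and 6 were called, where 59.1% of all genes were. Cul2, the scaffold of the von Hippel-Lindau ligase, was higher in tumor (1.80 ± 0.289, adjusted p = 4.3e-04) together with the hydroxylase gene Egln1 (0.85 ± 0.221). Lower were the coactivator genes Ep300 (-1.11 ± 0.174) and Crebbp (-0.69 ± 0.160), the asparaginyl hydroxylase gene Hif1an (-1.0 ± 0.193) and Egln2 (-0.52 ± 0.200). In untreated M-MDSC 3 of 13 were higher in tumor and none lower, where 28.4% of all genes were called: the partner subunit gene Arnt (0.90 ± 0.137, adjusted p = 4.1e-04), Egln1 (0.97 ± 0.182) and Cited2 (0.65 ± 0.207), a competitor for the same coactivators. Vhl, the ligase subunit gene itself, was not called, with -0.12 in PMN-MDSC and 0.20 in M-MDSC. Hif1an was -0.29 in M-MDSC and not called. Epas1, which encodes HIF-2α, averaged 8.30 CPM or less in every MDSC group and 41.3 ± 21.1 CPM in bulk tumor.

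Receptor genes for the 2 secreted factors were present in part. For VEGF-A, Nrp1 averaged 23.3 CPM in untreated spleen and 151 CPM in untreated tumor PMN-MDSC, and Nrp2 10.7 and 117 CPM, each without overlap. In M-MDSC Nrp1 averaged 128 CPM in untreated spleen and 120.2 CPM in untreated tumor with overlapping ranges, and Nrp2 32.8 and 80.1 CPM without overlap. Flt1 averaged 1.85 to 27.2 CPM in the MDSC groups and 89.0 CPM in bulk tumor. Kdr, the main endothelial VEGF receptor, averaged 3.75 CPM in untreated and 153 CPM in treated spleen M-MDSC, with treated libraries at 85.8 to 272 CPM and untreated ones at 6.43 CPM or less. Kdr is 1 of the 6 genes of the endothelial list, whose sum including it was 94.2 to 275 CPM in those treated libraries. For adrenomedullin, Calcrl averaged 11.8 to 50.3 CPM in the MDSC groups, whereas Ramp2 averaged at most 0.714 CPM and Ramp3 at most 5.33 CPM there. These receptor levels are given without a test.

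Likeness across the 30 MDSC libraries is given as Pearson r of log2(CPM + 1), a description over libraries that share groups. Egln3 and Bnip3 went together (r = 0.89), as did Vegfa with each of them (0.84 and 0.84), and Hif1a with P4ha1 (0.81), Vegfa (0.76) and Ddit4 (0.68). Egln3 and Ddit4 were unrelated at 0.00, and Ndrg1 and Ddit4 at -0.03. Among 8536 genes, those most like Vegfa were Thbs1 (0.97), Fos (0.96) and Btg2 (0.96), of which Fos and Btg2 are on the immediate early list. Those most like Hif1a were Slc39a14 (0.95), Gm48065 (0.94) and Snhg15 (0.93), and those most like Egln3 were Il1b (0.95), Cpeb2 (0.94) and Ppp1r3b (0.93). Bnip3 was nearest to Zfp36l1 (0.92) and to Egln3 itself, P4ha1 to the heat shock gene Hsph1 (0.94), Cttnbp2nl (0.94) and the HIF target Pdk1 (0.93). For Ndrg1, Ddit4 and Adm the nearest were Cux1 (0.87), F10 (0.87) and Folr2 (0.83), and the Adm value rests on few counts.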

How the data were processed

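The authors sequenced RNA of 35 libraries, of which 34 are used here, after SMARTer Stranded Total RNA-Seq Pico preparation without molecular identifiers. According to the study's methods and the submitters' processing notes, reads were mapped to mm10 (GRCm38) with ContextMap and BWA and fragments were counted by strand with featureCounts (Subread 1.4.6-p3), and the authors deposited raw counts per gene. Symbols, positions and exon lengths came from GENCODE M21. CPM was computed per library total and FPKM per exon length. For each comparison a quasi-likelihood F-test of edgeR (4.0.16, R 4.3.3) was run with TMM scaling and robust dispersions on all genes averaging 25 counts or more per fitted library, with Benjamini-Hochberg adjustment over them, and a gene was called at an adjusted p under 0.05. Printed errors are SE of log2 fold changes or, for levels, SD over libraries, and 95% intervals are normal intervals from the SE. The fitted changes differ from ratios of CPM because TMM scaling shifted comparisons by -0.42 to 0.38 on the log2 scale. The test was run on simulated data with known changes first. The p-values measure the spread between libraries, which the labels give as separate samples, and floors of 3 counts cover counting error only.

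The 8 genes, the HIF target list (54 genes), the HIF regulator list (17 genes) and the marker lists were chosen with earlier results of these data known, so counts over them are descriptions. Among the HIF targets the text names the called genes with the largest change in each direction for each tumor against spleen comparison, up to 3, and any others named were chosen after their values were seen. One gene that this rule selects and part of the tumor line's genotype are not reported here. Genes most like a member were the 3 with the highest Pearson r among genes with enough counts. All 8 genes except Adm passed the count minimum in most comparisons. Hif1a shares 148 exon bases with Gm49321, which had 0 counts. The columns give a group but no mouse, so the tests treat libraries of different fractions as independent although the sample titles number them alike. Alternatives were DESeq2 (1.42.0), RLE scaling, no count minimum, a stricter threshold, a joint fit of 4 groups and leaving out each library.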

Additional observations from a re-analysis of the deposited data

Results flagged for a closer look

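In 8 of the 54 groups of 4 libraries tested, 1 library stood apart from the other 3 by Dixon's criterion. Chance meets it in about 1 of 20 groups of normally distributed values, which low counts are not. For Ndrg1 these were a spleen M-MDSC library of an untreated mouse at 98.9 CPM (the others at 44.3 to 50.5 CPM) and a bulk tumor library at 1288 CPM (the others at 371 to 502 CPM). P4ha1 was at 81.8 CPM in bulk tumor library 1, with the others at 52.0 to 56.9 CPM. Ddit4 was at 44.3 CPM in untreated tumor PMN-MDSC library 1 and at 55.0 CPM in untreated tumor M-MDSC library 1. Adm was at 3.64 CPM in untreated tumor PMN-MDSC library 1, the library that was also highest for Hif1a, Ndrg1, P4ha1 and Ddit4 and had the highest epithelial share (14.4%), the part of which was not tested. The other Adm values, 0.527 CPM in an untreated and 0.291 CPM in a treated spleen M-MDSC library, are 1 count each beside libraries at 0, a pattern that always meets the criterion.

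The effect of compartment or of treatment differed between groups for 5 genes by the interaction test. The treatment effect on P4ha1 was 1.95 higher on the log2 scale in tumor than in spleen PMN-MDSC, where 3.5% of all genes were called. Without treated spleen library 3 its adjusted p was 0.0722. The step from spleen to tumor in untreated mice differed between PMN-MDSC and M-MDSC by -2.12 for Vegfa, -2.72 for Egln3, -2.17 for Bnip3 and -1.13 for Ndrg1. Of all genes 37.5% were called there, 20.4% in the same direction. Without untreated tumor PMN-MDSC library 3 or 4 the adjusted p of Ndrg1 was 0.0534 or 0.0568.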

How the results depend on the processing

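No paired analysis was possible because the columns of the count table carry a group but no mouse number, unless column order was used. A pairing with the numbered sample titles might be had from that order, but the order was not used and no paired fit was run. Fractions of the same mouse were therefore tested as independent, and the effect of pairing on the calls was not tested. Of 1291 values of the 8 genes recomputed under the alternatives, 1203 stayed on the same side of the threshold, and none that was called changed sign. Among values that were not called, 32 did. The numbers below count members of the list called in a comparison. Under the stricter threshold (adjusted p under 0.001 and 2-fold) 3 were called between tumor and spleen in untreated PMN-MDSC, 3 in treated PMN-MDSC and 0 in treated M-MDSC, 0 for treatment in spleen PMN-MDSC, spleen M-MDSC and tumor M-MDSC, 3 between the cell types in spleen and 1 in tumor, and 0 for the interaction of treatment and compartment in PMN-MDSC. Over all genes this threshold called 1727, 1045 and 14, then 3, 220 and 1, then 1993 and 126, and last 0, in the same order. With DESeq2, 2 were called for treatment in tumor PMN-MDSC, 4 in tumor M-MDSC, 2 for the interaction of treatment and compartment in PMN-MDSC and 1 in M-MDSC. Over all genes DESeq2 called 613, 796, 501 and 307 in these comparisons, against 279, 241, 282 and 69 in the main fits. RLE scaling gave 1 for that interaction in M-MDSC, with 75 called over all genes. Without a count minimum 5 were called between treated tumor and spleen M-MDSC, 1 and 4 for treatment in tumor PMN-MDSC and tumor M-MDSC, 4 between the cell types in tumor, and 2 and 2 for the interactions in PMN-MDSC and M-MDSC. Over all genes these fits called 1972, then 864 and 1064, then 1658, then 676 and 659. They also called Egln3 for treatment in spleen M-MDSC (adjusted p = 0.0455) and Adm between tumor and spleen in untreated (0.00552) and treated (0.00146) PMN-MDSC. The fit over 4 groups gave 5 between treated tumor and spleen M-MDSC, with 1348 called over all genes. This fit ended the calls of Egln3 for treatment in spleen PMN-MDSC, Ddit4 for treatment in spleen M-MDSC and Ndrg1 between untreated tumor and spleen M-MDSC. RLE scaling ended the calls of Ndrg1 in that comparison (adjusted p = 0.0501) and of Hif1a between the cell types in spleen (0.053), and dropping the count minimum ended that of Ddit4 between the cell types in spleen (0.0936). Leaving out 1 library gave 0 to 2 for treatment in spleen PMN-MDSC, 1 to 2 in spleen M-MDSC, 0 to 3 in tumor M-MDSC and 0 in every fit in tumor PMN-MDSC. It gave 1 to 3 between the cell types in tumor, 0 to 1 for each interaction of treatment and compartment, 5 between untreated tumor and spleen PMN-MDSC and 5 to 7 in M-MDSC, where a gene can also drop out by having too few counts. The causes were not tested.

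Counts over all genes moved more. The stricter threshold took genes called from 4714 to 1727 between untreated tumor and spleen PMN-MDSC, from 2357 to 714 in M-MDSC, and for treatment from 844 to 3 in spleen PMN-MDSC and from 241 to 1 in tumor M-MDSC. For treatment in tumor M-MDSC, 796 were called with DESeq2, 1064 without a count minimum, 821 in the fit over 4 groups and 30 to 531 without 1 library. For treatment in tumor PMN-MDSC, 279 were called against 613 with DESeq2, 864 without a count minimum and 110 to 276 without 1 library.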
